A study of Mus musculus with 4 samples.

Results

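Plac8, Sprr1a, Nipal4, Klhl29, C1qtnf3 and Cck are 6 mouse genes of unrelated families that were chosen by their array intensities, which are bright in 2 colonic lines of mesenchymal stem cells (MSC) and close to the floor of the array in 2 lines from bone marrow. MSC are stromal cells that stick to plastic and can form bone, fat and cartilage. The 6 genes have 7 probe sets with a single gene symbol on the array, of 45101 probe sets in all, and stand for 6 of 18193 genes named in this way. The list has no numerical limit, so no value lies just inside or just outside it. Because the difference between the tissues chose these genes, that difference is given for them as a description and without a test. The groups compared are colonic MSC, isolated from flushed colon, and bone marrow MSC, both from C57BL/6 mice with no other allele or agent named. Each tissue had 2 samples titled biological replicates 1 and 2, called lines 1 and 2 here, with 1 Affymetrix array each. The titles do not say that the replicates were derived separately. All lines were obtained by collagenase digestion and fast adherence to plastic. Culture was in low-glucose DMEM containing 10 mM HEPES and 10% fetal serum, and RNA came from cultures at passages from 5 up to 10. The labels do not say whether the lines of a tissue came from separate animals, so p-values measure only the spread between these samples.

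The products of these genes work in different places. Plac8 is a small cysteine-rich protein, first known from placenta, which in the mouse is needed for Cebpb expression in brown fat precursors and for bacterial killing by neutrophils. Sprr1a is a small proline-rich protein that transglutaminases crosslink into the cornified envelope of squamous epithelium, and it is also induced in injured neurons and in stressed heart muscle. Nipal4 (ichthyin) is a membrane protein of a family of magnesium transporters, and in humans its mutations cause congenital ichthyosis. Klhl29 belongs to the Kelch-like proteins, many of which bring substrates to the Cullin-3 ubiquitin ligase. C1qtnf3 (also called cartducin or CTRP3) is a secreted protein with a collagen-like and a C1q domain that promotes the growth of cartilage precursors and acts as an adipokine. Cck encodes cholecystokinin, the peptide of endocrine cells of the upper intestine and of neurons that drives gallbladder contraction and pancreatic enzyme release.

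The promoters of these genes differed in base composition and in the motifs they hold. RefSeq windows on GRCm38.p6, from 250 bases before to 50 bases after the start, matched all 6 genes, with 2 windows for Plac8. Those of Sprr1a, C1qtnf3, Cck and Klhl29 are printed because they hold the matches to TATAAA, AP-1 and forkhead motifs or the extremes of base composition, in the direction of transcription and with matches in capitals. They lie at chr3:92485832-92486131 (minus strand), chr15:10952082-10952381 (plus strand), chr9:121495645-121495944 (minus strand) and chr12:5375633-5375932 (minus strand).
Sprr1a: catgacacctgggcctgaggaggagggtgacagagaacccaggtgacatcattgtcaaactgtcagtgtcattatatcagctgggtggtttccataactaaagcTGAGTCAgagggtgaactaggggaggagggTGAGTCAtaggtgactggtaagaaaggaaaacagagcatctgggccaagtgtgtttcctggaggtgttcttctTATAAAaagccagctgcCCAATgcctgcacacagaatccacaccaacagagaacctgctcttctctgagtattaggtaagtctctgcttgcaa
C1qtnf3: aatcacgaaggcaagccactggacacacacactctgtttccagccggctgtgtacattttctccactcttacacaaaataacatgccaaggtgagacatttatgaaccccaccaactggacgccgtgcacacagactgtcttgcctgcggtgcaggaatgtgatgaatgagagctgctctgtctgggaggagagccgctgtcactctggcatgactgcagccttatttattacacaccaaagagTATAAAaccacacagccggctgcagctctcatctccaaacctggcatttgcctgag
Cck: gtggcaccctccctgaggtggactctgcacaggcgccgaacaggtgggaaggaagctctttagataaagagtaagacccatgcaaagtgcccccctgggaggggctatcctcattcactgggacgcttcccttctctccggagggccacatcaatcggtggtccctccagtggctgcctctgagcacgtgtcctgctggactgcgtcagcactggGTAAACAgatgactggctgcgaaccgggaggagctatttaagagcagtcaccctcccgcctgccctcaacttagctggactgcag
Klhl29: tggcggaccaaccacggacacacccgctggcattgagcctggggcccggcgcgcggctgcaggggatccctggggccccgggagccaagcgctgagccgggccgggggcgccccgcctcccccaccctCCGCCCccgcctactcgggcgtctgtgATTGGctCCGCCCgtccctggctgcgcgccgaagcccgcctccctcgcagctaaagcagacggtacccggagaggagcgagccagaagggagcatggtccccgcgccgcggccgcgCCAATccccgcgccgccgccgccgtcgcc

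Both strands were searched for TATAAA (the core bound by TBP), TGANTCA (AP-1), TGACGTCA (CREB), GGGCGG (Sp1), CCAAT (NF-Y), TGTTTAC (forkhead factors) and TGATTNAT (Hox and Pbx). In Sprr1a TGANTCA matched at 146 and 116 bases and TATAAA at 43 bases before the start, counted to the first base of the match. TGANTCA is in 7.81% and TATAAA in 13.6% of all 32851 windows. C1qtnf3 had TATAAA at 6 bases before the start, and Cck had the reverse complement of TGTTTAC, found in 3.65% of windows, at 35 bases. GGGCGG, in 35.7% of windows, matched in Klhl29 and Nipal4, and CCAAT, in 37.4%, in 4 of the 7 windows, those of Plac8, Sprr1a and Klhl29. TGACGTCA and TGATTNAT, in 1.79% and 3.22% of windows, matched in none of the 7. No matches overlapped. Sprr1a's window had 0 CpG dinucleotides and 48.7% G and C, and that of Klhl29 had 40 CpG and 77.3%, beside medians of 7 CpG and 52.7% over all windows. Nipal4 had 23 CpG, Cck 10, C1qtnf3 7, and Plac8 9 and 5. A match describes letters only.

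Plac8 had an intensity of 5275 and 4765 in the colonic lines, against 57.4 and 21.8 in the bone marrow lines. Its mean was 5020 ± 360 in colonic MSC and 39.6 ± 25.2 in bone marrow MSC (SD, n = 2 each). Both colonic values were high and close to each other, and the bone marrow values lay at the middle of their array or below it. On the log2(intensity + 13.7) scale, where 13.7 is a pseudocount of 0.25 of the table median, the difference between tissues was 6.65. In such bulk samples, fewer cells with a transcript and less transcript per cell cannot be told apart.

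Sprr1a was at 1229 and 1335 in the colonic lines, against 33.2 and 31.5 in the bone marrow lines. The lines of each tissue were nearly level, with means of 1282 ± 74.9 in colonic MSC and 32.3 ± 1.20 in bone marrow MSC (SD, n = 2 each). The log2 difference was 4.82.

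Nipal4 had a pair of probe sets. The brighter one was at 584 and 355 in the colonic lines and at 2.95 and 2.56 in the bone marrow lines, a log2 difference of 4.84. The dimmer one read 97.3 and 66.1 in colonic MSC, against 16.6 and 20.3 in bone marrow MSC, a log2 difference of 1.55. Both separated the tissues without overlap and had colonic line 1 above colonic line 2, but in colonic MSC the dimmer one stood at percentiles 57.2 and 52.6 of its arrays. The name of the brighter probe set carries the suffix that Affymetrix gives to probes matching more than one transcript, so its signal need not come from Nipal4 alone.

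Klhl29 stood at 506 and 754 in the colonic lines, against 4.00 and 3.14 in the bone marrow lines. Colonic line 2 was the higher here, and the bone marrow values were among the lowest on their arrays. Means were 629.9 ± 176 in colonic MSC and 3.57 ± 0.608 in bone marrow MSC (SD, n = 2 each), with a log2 difference of 5.20.

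C1qtnf3 read 3662 and 1322 in the colonic lines, against 1.66 and 7.76 in the bone marrow lines. Cck read 2122 and 924 in the colonic lines, against 14.4 and 8.64 in the bone marrow lines. These secreted products shared a higher signal in colonic line 1 than in colonic line 2. C1qtnf3 averaged 2492 ± 1655 in colonic MSC and 4.71 ± 4.31 in bone marrow MSC (SD, n = 2 each), a log2 difference of 6.93. Cck averaged 1523 ± 847 in colonic MSC and 11.5 ± 4.07 in bone marrow MSC (SD, n = 2 each), a log2 difference of 5.82.

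**Figure D1:**
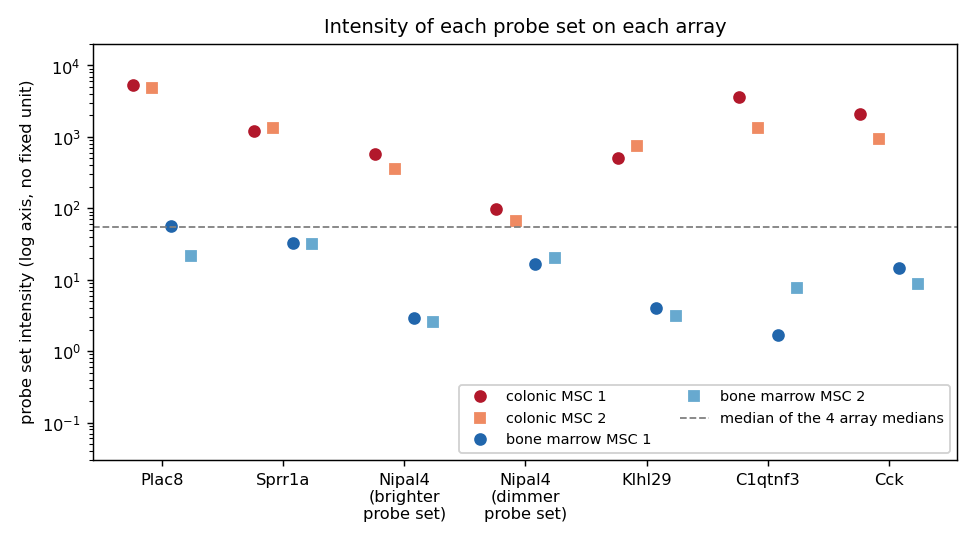
Intensity of each of the 7 probe sets (log axis, no fixed unit) on the 2 colonic (red) and 2 bone marrow (blue) arrays, with circles for line 1, squares for line 2 and a dashed line at the median of the array medians. Colonic values of the brightest probe set of each gene lie between 355 and 5275 and bone marrow values between 1.66 and 57.4. Heights are comparable between arrays for 1 probe set and not between probe sets.

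The choice of genes can be set beside all 12920 genes that passed the filter on low values, each represented by its brightest probe set. All 7 probe sets passed it, through the colonic arrays. In 23 genes (0.178%) the lowest colonic value exceeded the highest bone marrow value at least 16-fold on the scale with the pseudocount, and all 6 genes were among them. Ranked by that gap, Plac8 was at 5, C1qtnf3 at 6, Cck at 13, Klhl29 at 14, Sprr1a at 16 and Nipal4 at 18. These places repeat how the genes were chosen. The fold itself depends on the pseudocount because the bone marrow values are near the floor: with a pseudocount of 1 the log2 differences of Nipal4 and Klhl29 were 6.93 and 7.09, and with the table median they were 3.16 and 3.53.

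The choice asked for brightness in both colonic lines, which limits how far they can differ, but not for an order between them. C1qtnf3 was 2.77-fold and Cck 2.30-fold brighter in colonic line 1 than in colonic line 2, and the brighter Nipal4 probe set 1.64-fold. Plac8 differed by 1.11-fold in the same direction. Klhl29 was 1.49-fold and Sprr1a 1.09-fold brighter in colonic line 2. Over the 6 genes the median size of the log2 difference between the colonic lines was 0.63, against 0.33 over all genes tested. All genes tested include dim ones, whose differences the pseudocount shrinks. These medians are thus not matched for intensity and do not show that the 6 genes vary more than others. The bone marrow lines were chosen to be near the floor, so their differences are not compared. A single pair of arrays gives no test of a difference between lines.

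**Figure D2:**
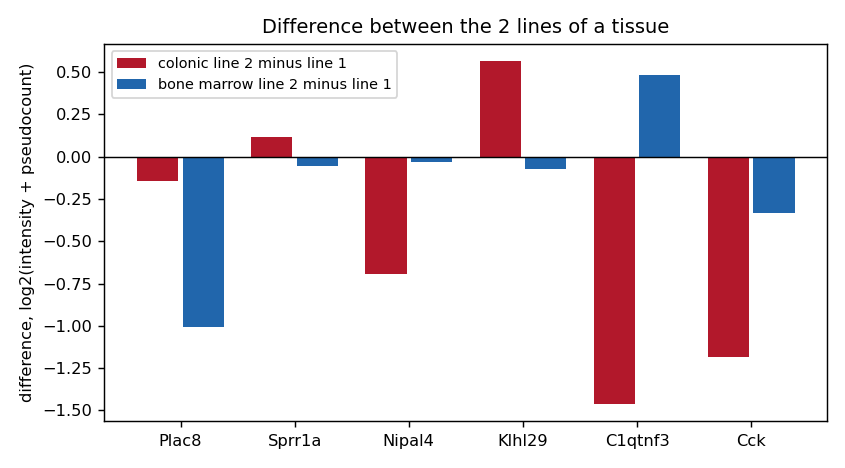
Difference between line 2 and line 1 of the colonic (red) and bone marrow (blue) MSC for the brightest probe set of each gene, in log2(intensity + pseudocount). Bars below 0 mean that line 1 was brighter, as for C1qtnf3 (-1.46) and Cck (-1.19) in colonic MSC, while Klhl29 (0.56) and Sprr1a (0.12) point the other way. Bone marrow bars rest on values near the floor and depend on the pseudocount.

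Marker lists of MSC and of other cell types were read on the same arrays. Of 12 MSC markers 11 had a probe set and all 11 passed the filter, among them Cd44 (8532 and 6512 in colonic MSC, 6043 and 4867 in bone marrow MSC) and the collagen gene Col1a2, between 14901 and 15827 on the 4 arrays. The MSC marker Thy1 was at 4516 and 9032 in colonic MSC, against 32.8 and 22.0 in bone marrow MSC, near the floor. Other MSC markers pointed to bone marrow. Pdgfra, a growth factor receptor gene, was at 492 and 743 in colonic MSC and 1609 and 2493 in bone marrow MSC (log2 difference -1.70 ± 0.38, SE, limma adjusted p = 0.490), and Pdgfrb had a log2 difference of -0.43 ± 0.16 (SE, limma adjusted p = 0.801), both without overlap. Itgb1, the integrin beta-1 gene, was at 7839 and 6346 in colonic MSC and 5396 and 5338 in bone marrow MSC. Vcam1 and Alcam, adhesion molecule genes, split the colonic lines. Vcam1 was at 2281 and 266 in colonic MSC, against 2206 and 2535 in bone marrow MSC. Alcam was at 2139.7 and 37.0 in colonic MSC, against 217 and 119 in bone marrow MSC. Nt5e (CD73) was at 209 and 27.6 in colonic MSC and 76.3 and 27.9 in bone marrow MSC.

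Squamous epithelium, where Sprr1a is best known, left 4 of 11 measured markers above the filter. Summed over the 11, intensities were 1335 and 323 in colonic MSC and 452 and 629 in bone marrow MSC. The keratin gene Krt14 was at 13.7 and 20.3 in colonic MSC and 14.8 and 16.7 in bone marrow MSC. Most of the sum in colonic line 1 came from Perp, a desmosome-associated gene, at 1099 there and 16.1 in colonic line 2. Trp63, the regulator of squamous epithelium, was at 23.1 and 17.6 in colonic MSC and 51.2 and 328 in bone marrow MSC, a log2 difference of -2.13. Another Trp63 probe set above the filter was at 59.1 and 45.2 in colonic MSC and 39.8 and 45.7 in bone marrow MSC, a log2 difference of 0.22. The part of any of these markers in the level of Sprr1a was not tested.

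Colonic epithelium left 8 of 16 markers above the filter, with sums of 3316 and 469.5 in colonic MSC and 6746 and 5618 in bone marrow MSC. Epcam, which marks epithelial cells, was below the filter at 19.6 and 18.8 in colonic MSC and 8.97 and 14.7 in bone marrow MSC. Lgr5, the crypt stem cell marker, was at 12.9 and 9.30 in colonic MSC and 124 and 73.1 in bone marrow MSC (log2 difference -2.15 ± 0.32, SE, limma adjusted p = 0.208). Keratin genes carried most of these sums except in colonic line 2. Krt19 was at 1890 and 105 in colonic MSC and 6223 and 5083 in bone marrow MSC, and Krt20 at 889 in colonic line 1 and at most 29.4 on the other arrays. Enteroendocrine cells, the intestinal source of Cck, left 3 of 11 markers above the filter, with sums of 306 and 289.7 in colonic MSC and 264 and 271 in bone marrow MSC. Their granin gene Chga was at 28.9 and 31.4 in colonic MSC and 21.9 and 28.7 in bone marrow MSC.

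Myeloid and other blood cells, in which Plac8 is abundant, left 10 of 16 markers above the filter, with sums of 2120 and 3264 in colonic MSC and 3732 and 1458 in bone marrow MSC. Ptprc, the common leukocyte antigen CD45, was below the filter at 23.7 and 19.3 in colonic MSC and 28.6 and 20.9 in bone marrow MSC. Cd53, a leukocyte tetraspanin, also separated the tissues, at 155 and 1333 in colonic MSC and 14.0 and 15.7 in bone marrow MSC. Its log2 difference was 4.07 ± 1.03 (SE, limma adjusted p = 0.593), and its part in the level of Plac8 was not tested. Another probe set of Cd53, below the filter, had a log2 difference of 0.92. Fcer1g, an Fc receptor subunit gene, was at 43.2 and 59.6 in colonic MSC and 639.9 and 59.0 in bone marrow MSC, and the lysozyme gene Lyz2 was at 150.1 and 590.5 in colonic MSC and 1589 and 31.7 in bone marrow MSC. Both were highest in bone marrow line 1, which also had the higher of the bone marrow values of Plac8. Other markers of the list went either way between the bone marrow lines. There Cd68 was at 57.8 and 28.9, Itgam at 48.4 and 87.7, and Mpo at 115 and 143. The part of these genes in the level of Plac8 was not tested. Enteric neuron and glia markers summed to 1333 and 469.3 in colonic MSC and 1232 and 572 in bone marrow MSC, with 3 of 8 above the filter. Uchl1 made up most of the sum in colonic line 1, at 814 there and 100.3 in colonic line 2, against 87.0 and 91.5 in bone marrow MSC. Ret, the receptor gene of enteric neuron precursors, made up most of the sum in bone marrow line 1, at 105 and 154 in colonic MSC and 860.1 and 234.5 in bone marrow MSC, a log2 difference of -1.72 ± 0.70 (SE, limma adjusted p = 0.857). Another Ret probe set above the filter was at 35.3 and 44.3 in colonic MSC and 188 and 35.0 in bone marrow MSC. Its log2 difference was -0.90, and its tissues overlapped. Mesothelial markers left 1 of 7 above the filter (sums of 311 and 145 in colonic MSC, 172 and 122 in bone marrow MSC) and endothelial markers 3 of 6 (251 and 185 in colonic MSC, 147 and 108 in bone marrow MSC). Among the endothelial markers Kdr, a VEGF receptor gene, was at 91.1 and 68.9 in colonic MSC and 31.9 and 18.5 in bone marrow MSC (log2 difference 1.28 ± 0.30, SE, limma adjusted p = 0.521). Like C1qtnf3 and Cck, the genes Krt20, Perp, Uchl1, Vcam1 and Alcam were higher in colonic line 1 than in line 2. The markers Thy1, Ret, Cd53 and Lyz2 went the other way, with colonic line 2 the higher. The part of any of these markers in the levels of C1qtnf3 and Cck was not tested.

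Relatives and partners of the 6 genes were not used to choose them and were compared between tissues with limma's moderated test, fitted over all 12920 genes with Benjamini-Hochberg adjustment. Of 187 such genes in 14 lists, 168 had a probe set with a single symbol and 101 passed the filter. At an adjusted p of 0.05, 0 of the 101 were called, as were 0% of all genes. At an unadjusted p of 0.05, 4 of 101 (3.96%) were higher in colonic MSC, against 3.3% of all genes, and 7 (6.93%) were lower, against 2.7%. Without overlap between tissues were 22 that were higher (21.8%) and 21 that were lower (20.8%), beside 18.4% and 15.1% of all genes. The shares toward colon lay near those of all genes and the shares toward bone marrow above them, which was not tested. The median log2 difference was -0.01 over the 101 and 0.01 over all genes.

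The only other measured member of the Plac8 family above the filter was Plac8l1, at 100.3 and 74.9 in colonic MSC and 103 and 87.5 in bone marrow MSC. Cnfn, the cornifelin gene of the same family, was below the filter. Cebpb, whose expression depends on Plac8 in brown fat precursors, read 2062 and 2820.3 in colonic MSC and 2143 and 2747 in bone marrow MSC, a log2 difference of -0.01 ± 0.27 (SE). Prdm16, the brown fat regulator, was at 67.8 and 8.83 in colonic MSC and 233 and 612 in bone marrow MSC (log2 difference -3.20 ± 0.81, SE, limma adjusted p = 0.593). Its other probe sets that passed the filter had log2 differences of -1.85 and -0.03.

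Among 7 measured members of the Sprr family besides Sprr1a, 1 passed the filter. That gene, Sprr2k, was at 68.8 and 61.2 in colonic MSC and 113 and 51.6 in bone marrow MSC. Sprr1b, the closest relative of Sprr1a, was at most 2.49 on any array. Of 12 cornified envelope genes outside the family that passed the filter, 0 were called and the median log2 difference was -0.10. Ivl, the envelope precursor involucrin, was at 750.2 in colonic line 1 and 39.2 in colonic line 2, against 27.4 and 45.5 in bone marrow MSC, so its tissues overlapped. Cdsn, corneodesmosin, pointed to bone marrow, at 80.1 and 179.7 in colonic MSC and 1507 and 317 in bone marrow MSC (log2 difference -2.40 ± 0.87, SE, limma adjusted p = 0.796). Lor, the envelope precursor loricrin, was at 69.7 and 56.4 in colonic MSC and 30.5 and 31.0 in bone marrow MSC (log2 difference 0.78 ± 0.24, SE, limma adjusted p = 0.676). Tgm1, the keratinocyte transglutaminase, lay between 32.0 and 56.2 on all arrays.

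Nipal4's relatives Nipa1, Nipa2, Nipal1 and Nipal3 had positive log2 differences of 0.61, 0.50, 1.16 and 0.86, and 0 of the 4 were called. Nipal1 was at 3084 and 878 in colonic MSC and 852 and 624 in bone marrow MSC, with the same order of the colonic lines as Nipal4. Nipal2 was below the filter. Other magnesium transport genes had 12 members above the filter, 0 called, and log2 differences between -0.50 and 0.83, the highest being that of the transporter gene Slc41a2. Tusc3 had the lowest p of these, at 5596 and 4859 in colonic MSC and 4329 and 3756 in bone marrow MSC (limma adjusted p = 0.895). Of 10 genes of the epidermal lipid barrier, the pathway in which human NIPAL4 mutations act, 4 passed the filter, with log2 differences from -0.46 to 0.51 and 0 called.

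Kelch-like genes held the relatives farthest toward colon. In 2 of the 34 that passed the filter the lowest array of one tissue exceeded the highest of the other at least 4-fold, as in 0.573% of all genes toward colon and 0.356% toward bone marrow. Klhl30 was at 333 and 322 in colonic MSC and 37.0 and 36.5 in bone marrow MSC, a log2 difference of 2.76 ± 0.28 (SE, limma adjusted p = 0.0935). Klhl13 read 3284 and 2650.4 in colonic MSC, against 577 and 25.2 in bone marrow MSC, a log2 difference of 4.29 ± 1.34 (SE, limma adjusted p = 0.702) and 2.82 in its other probe set. Klhl13 thus varied widely between the bone marrow lines, whereas Klhl30 was level within each tissue, and neither passed the threshold. Below an adjusted p of 0.1 lay 0.379% of all genes, Klhl30 included. The other Kelch-like genes were spread around 0 (median of the list 0.07). Cul3, the ligase scaffold, was at 4667 and 5046 in colonic MSC and 5015 and 5580.3 in bone marrow MSC.

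C1qtnf3's closest relatives went in both directions. C1qtnf2 was at 551 and 177 in colonic MSC and 107 and 46.4 in bone marrow MSC, a log2 difference of 1.95 ± 0.69 (SE, limma adjusted p = 0.781), with colonic line 1 above line 2 as for C1qtnf3. C1qtnf1 was at 419.8 and 395 in colonic MSC and 2473 and 1031 in bone marrow MSC, a log2 difference of -1.94 ± 0.50 (SE, limma adjusted p = 0.609). Its other probe set was at 5.87 and 14.5 in colonic MSC and 149.6 and 40.6 in bone marrow MSC. Adipoq, the adipokine adiponectin, overlapped between tissues at 73.8 and 17.3 in colonic MSC and 24.9 and 34.6 in bone marrow MSC.

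Of 17 measured genes of other proteins with a C1q domain 9 passed the filter, and 0 of these 9 were called. Without overlap 6 were lower and 0 higher, beside 15.1% and 18.4% of all genes, and at an unadjusted p of 0.05 there were 4 lower and 0 higher, beside 2.7% and 3.3% of all genes. The matrix glycoprotein Emilin2 was at 994 and 362 in colonic MSC and 3797 and 3799 in bone marrow MSC (log2 difference -2.63 ± 0.53, SE, limma adjusted p = 0.389). Emilin1 was at 2554 and 2198 in colonic MSC and 6290.3 and 4991 in bone marrow MSC (log2 difference -1.24 ± 0.20, SE, limma adjusted p = 0.256). The others of these 4 encode short-chain collagens. Col8a1 was at 3324 and 3779.6 in colonic MSC and 7464 and 5866 in bone marrow MSC, and Col10a1 at 41.8 and 30.0 in colonic MSC and 209 and 85.3 in bone marrow MSC.

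For Cck, the receptor genes Cckar and Cckbr and the gastrin gene Gast were all below the filter. Cckar was at 1.78 and 2.53 in colonic MSC and 5.29 and 1.00 in bone marrow MSC, and Cckbr between 25.2 and 32.5 on the 4 arrays. Of the genes for peptide hormone processing 6 passed the filter, with log2 differences from -0.56 to 0.19 and 0 called, and the convertase genes Pcsk1 and Pcsk5 were below it. The amidating enzyme gene Pam was at 36.2 and 22.8 in colonic MSC and 55.4 and 43.8 in bone marrow MSC. The carboxypeptidase gene Cpe was at 8224 and 8882 in colonic MSC and 8267 and 7477 in bone marrow MSC, a log2 difference of 0.12 ± 0.11 (SE). The tyrosylprotein sulfotransferase genes Tpst1 and Tpst2 had log2 differences of 0.19 ± 0.24 and -0.02 ± 0.22 (SE). Of 16 granins and other peptide genes of gut and nerve, 4 passed the filter and 0 were called. Penk, the enkephalin precursor, read 699 in colonic line 1 and 9.33 in colonic line 2, against 6.24 and 42.2 in bone marrow MSC, which overlapped.

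**Figure D3:**
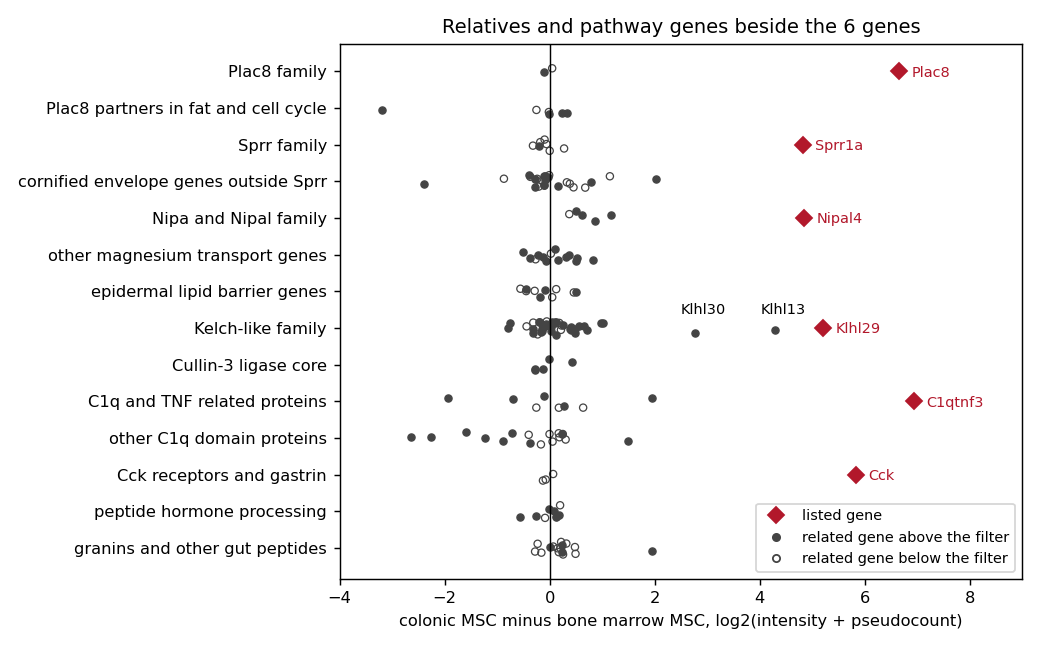
Difference colonic minus bone marrow MSC in log2(intensity + pseudocount), 1 point per gene, in 14 lists of relatives and partners; red diamonds are the 6 genes, filled points passed the filter on low values and open points did not. Apart from Klhl13 (4.29) and Klhl30 (2.76), related genes lie between -3.20 and 2.03, below all 6 diamonds.

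Genes that lie next to the 6 genes along the chromosome were described as well, a set added after the values were seen. The 3 measured genes on each side of each gene, in the order of the RefSeq annotation of GRCm38.p6, gave 36 neighbours, of which 26 passed the filter. By limma, 0 of these 26 were called, 2 (7.69%) had an unadjusted p below 0.05 toward colon and 0 toward bone marrow, beside 3.3% and 2.7% of all genes, and their median log2 difference was -0.02. No overlap was seen in 4 that were higher and 4 that were lower, beside 18.4% and 15.1% of all genes. The pair with the low p were 2810032G03Rik beside Klhl29 and Adam19, a metalloproteinase gene beside Nipal4. 2810032G03Rik was at 103 and 107 in colonic MSC and 29.1 and 31.2 in bone marrow MSC, a log2 difference of 1.44 ± 0.24 (SE, limma adjusted p = 0.267). Adam19 was at 8356 and 4053 in colonic MSC and 2069 and 1878 in bone marrow MSC, a log2 difference of 1.56 ± 0.38 (SE, limma adjusted p = 0.557). Coq2 beside Plac8 and Trak1 beside Cck differed by 0.08 and 0.21 on the log2 scale, and C1qtnf3's neighbour Amacr by 0.19.

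**Figure D4:**
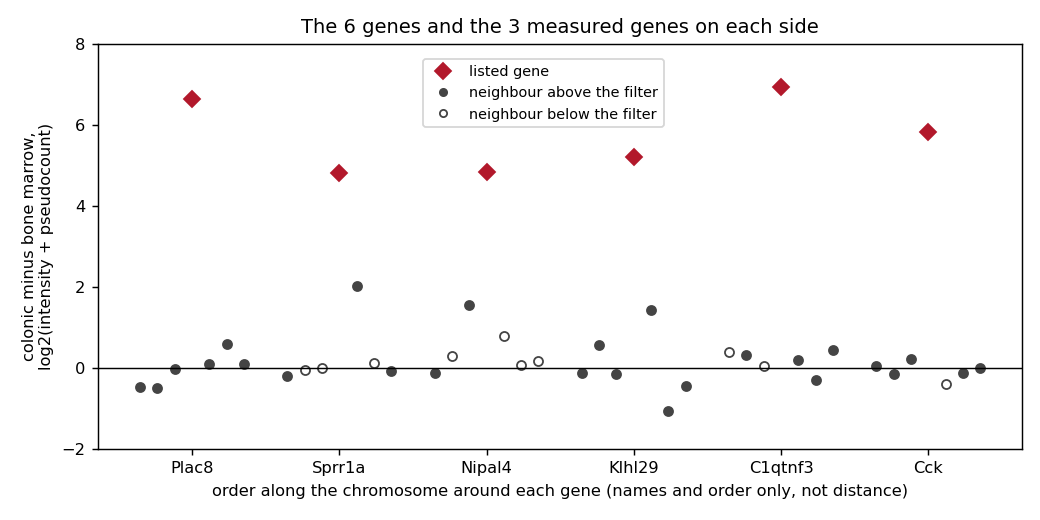
Difference colonic minus bone marrow MSC in log2(intensity + pseudocount) for each of the 6 genes (red diamonds) and the 3 measured genes on either side in chromosome order (filled points above, open points below the filter; spacing is not distance). Neighbours that passed the filter lie between -1.07 and 2.03, and the highest is Ivl beside Sprr1a.

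Other genes with the same course over the 4 arrays were found by the Euclidean distance of log2 values centred on each gene's mean, over all genes tested. The 4 arrays and the low bone marrow values are common to all of them. Plac8 was nearest to Dcn (decorin, distance 0.45), Igfbp6 (0.46) and Igfbp2 (0.91). Sprr1a was nearest to Foxf1 (0.38), Hoxb3 (0.39) and Klhl29 (0.50). Nipal4 was nearest to Foxf1 (0.26), Dmd (0.51) and Sprr1a (0.58), and Klhl29 to Hoxb2 (0.20), Irx1 (0.48) and Sprr1a (0.50).

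C1qtnf3 was nearest to Cyba (0.74), Meg3 (0.74) and Rian (0.75), and Cck to Peg3 (0.45), Rian (0.82) and Ptgis (0.92). Peg3, an imprinted gene, was at 1423 and 755 in colonic MSC and 14.0 and 7.94 in bone marrow MSC, and so had colonic line 1 above line 2 as Cck did. Hoxb2 was at 647 and 873 in colonic MSC and 4.87 and 6.02 in bone marrow MSC, with colonic line 2 the higher as for Klhl29. Among the 6 genes, Sprr1a and Klhl29 lay closest to each other (0.50) and Sprr1a and C1qtnf3 farthest apart (2.43). All distances were taken with the main pseudocount only, and they include the difference between tissues, which depends on it. With the main pseudocount that log2 difference was 4.82 for Sprr1a and 5.20 for Klhl29. It was 5.27 and 7.09 with a pseudocount of 1, and 3.94 and 3.53 with the table median. Whether the same genes stay nearest with other pseudocounts was not tested. Other probe sets of Foxf1 (1.51), Hoxb3 (1.63), Dcn (0.12) and Peg3 (from -0.24 to 2.61) showed smaller log2 differences than those used for the distance. So did those of Rian (from 0.75 to 3.61, against 6.42). Those of Meg3 ranged from 0.09 to 7.77, against 7.27 in the one used. Those of Dmd ranged from -0.33 to 4.51, against 4.48 in the one used.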

How the data were processed

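Total RNA of 4 lines was amplified, biotin-labelled and put on 1 array each, per the labels' protocols. The authors deposited 1 intensity per probe set, linear as judged from its range, and how the authors summarised, background-corrected or scaled them is not given in the sources used here. Array medians lay between 53.7 and 55.7 and upper quartiles between 611 and 657, so the deposited scaling was kept. No detection call was used. With 2 arrays per tissue, their number limits the precision.

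The 6 genes and all gene lists were chosen with earlier results of these data known. Probe sets were named through the platform annotation (34945 with 1 symbol, 932 with several and 9160 with none; 64 controls were left out). Values were taken as log2(intensity + 13.7), which understates differences of dim genes. The filter kept probe sets whose mean log2 value exceeded the 40th percentile (intensity of about 31.9), and the brightest stood for its gene. In 59 list genes several probe sets passed, and in 0 did these differ at least 2-fold in opposite directions. The comparison of tissues used limma 3.58.1 under R 4.3.3 (lmFit, eBayes with an intensity trend, tissue as the only term, 2 residual degrees of freedom, two-sided, Benjamini-Hochberg). Over all 12920 genes 0 were called at an adjusted p of 0.05 (smallest 0.0502), while 426 and 349 had an unadjusted p below 0.05, higher and lower in colonic MSC; no other test was run. An exact permutation of 2 against 2 arrays cannot give a p below 0.333. On simulated data of the 12920 genes, the fit called 3% of genes given a log2 change of 2, 56% at a change of 4 and 72% at a change of 6. The simulated spread came from the larger within-tissue difference of each gene and was shuffled across genes. It was therefore widened and not tied to intensity, so these shares are not the power of the fit on the real arrays. Named genes of each list were taken from the 4 with the lowest p among those above the filter, not all being printed, with those at least 4-fold apart. Sprr1b, Cnfn, Nipal2, Tgm1, Tpst2, Pcsk1, Pcsk5, Gast, the receptors of Cck, the neighbours Coq2, Trak1 and Amacr, and the markers Cd44, Col1a2, Vcam1, Alcam, Nt5e, Krt14, Epcam, Chga, Lyz2 and Ptprc were named after their values were seen. The markers Itgam and Mpo were named in the same way.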

Additional observations from a re-analysis of the deposited data

How the results depend on the processing

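The 6 genes kept closest arrays at least 4-fold apart, 6 of 6, under every setting tried on them (both other scalings, both other pseudocounts, the mean of probe sets and each array left out). Their log2 differences kept their sign, and averaging the probe sets gave 3.20 for Nipal4. The 6 genes were chosen for this separation on the same 4 arrays, so both outcomes repeat the choice. Leaving out an array or lowering the pseudocount cannot narrow the gap, so those settings could not have failed. Of the related genes 0 were called under every setting run except an adjusted p of 0.1, where 1 was, Klhl30. Over all genes the count of 0 stood at the edge of the threshold: quantile scaling gave 13, centring each array on its median 17, a pseudocount of 1 gave 15, raising the filter to the 60th percentile 15, averaging probe sets 12, eBayes without a trend 13, robust eBayes 15, and an adjusted p of 0.1 gave 49. Leaving out single arrays gave between 0 and 34, with 34 without colonic replicate 1, 20 (17 higher, 3 lower) without colonic replicate 2 and 0 without either bone marrow replicate; the remaining array is then taken to vary as the other tissue does. The count was also 0 with the table median as pseudocount, with no filter, with separate probe sets and with the replicate block. The cause of these moves was not tested. The labels number the lines 1 and 2 in each tissue without saying that a number pairs them, and deviations of same-numbered arrays correlated with r = 0.11 across genes, so the block was kept as an alternative only. Signal near the floor limits the fold of the 6 genes, since the bone marrow value enters it.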
